A study of Petromyzon marinus with 12 samples.

Results

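The genes described here are the 10 respiratory genes of the mitochondrial genome that the count table lists as ND1, ND2, ND4, ND5, CYTB, COX1, COX2, COX3, ATP6 and ATP8, and they were taken by those names. They are 10 of 21967 genes in the table, and all 10 passed the filter on low counts. The tissue was the endostyle of sea lamprey (Petromyzon marinus), a gland below the larval pharynx that gives rise to the thyroid follicles at metamorphosis. It had been profiled by bulk RNA sequencing in 3 libraries of each of 4 developmental stages, labelled T27 to T30. All animals were labelled WT, stage was the only difference given between the groups, and no age or treatment was given for any stage. Whether the numbered replicates of a stage were separate animals is not stated, so the p-values below reflect only how far these samples spread, and that spread may be technical.

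Mitochondria keep a small circular genome of their own. Its protein genes all encode membrane subunits of the respiratory chain or of ATP synthase: ND genes for complex I (NADH dehydrogenase), CYTB for complex III (the cytochrome bc1 complex), COX genes for complex IV (cytochrome c oxidase) and ATP genes for complex V (ATP synthase). In vertebrates the genome is copied into long RNAs that span many genes and are then cut, largely at the tRNAs between them. The genes of a strand thus share their transcription but need not share the stability of their messages. The many other subunits of the same complexes, and all of complex II (succinate dehydrogenase), are coded in the nucleus and imported. A thyroid cell is a secretory cell that makes hydrogen peroxide. It also takes up iodide against a gradient, work that draws on ATP.

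On the mitochondrial sequence of the authors' annotation, whose positions are given here, CYTB lay at 1 to 1191, ND1 at 4014 to 4979, ND2 at 5214 to 6257, COX1 at 6610 to 8163, COX2 at 8298 to 8987, ATP8 at 9064 to 9231, ATP6 at 9222 to 9900, COX3 at 9901 to 10686, ND4 at 11478 to 12854 and ND5 at 13068 to 14864. All 10 stood on the plus strand. The last 10 bases of ATP8 were also the first of ATP6, ND4 shared 7 bases with the preceding ND4L, and ND5 shared 16 bases with ND6 on the other strand. Counts had been made without an option for reads on overlapping genes, so reads in these stretches may have been left uncounted, in every library alike. There was no option for strand either, so reads of both strands could count for any gene. This bears on ND6 and on 8 tRNA genes that lie on the minus strand. Whether nuclear copies of mitochondrial DNA took or gave reads was not tested.

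The 10 genes together held more of the library at T30 than at T27, with T28 and T29 between. Their summed share of all gene counts was 1.57%, 1.62% and 1.51% in the 3 T27 libraries, 1.84%, 1.89% and 1.64% at T28, 1.65%, 1.84% and 1.995% at T29, and 2.004%, 1.70% and 2.37% at T30. Each T30 library lay above each T27 library, while the T30 range overlapped those of T28 and T29. The mean was 1.79 ± 0.131% at T28 and 1.825 ± 0.175% at T29 (SD, n = 3 each). It was 2.02 ± 0.335% at T30 and 1.57 ± 0.0556% at T27 (SD, n = 3 each), a difference of 0.457 percentage points. Without T30 replicate 2 it was 0.620 points and without T30 replicate 3 it was 0.285 points. The spread between libraries was widest at T30, where replicate 3 was the highest of its stage for 10 of the 10 genes and replicate 2 the lowest for 8. At T29 replicate 3 was likewise the highest and replicate 1 the lowest for 10 of the 10. No test was made of the summed share, since the genes were chosen with earlier results of these libraries known.

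Nuclear genes for subunits of the respiratory chain and ATP synthase moved otherwise at the last step. Those matched included 3 genes of complex II, which has no mitochondrial gene. The 58 genes that could be matched by name held 0.921 ± 0.0423% of the counts at T27, 1.01 ± 0.0155% at T28, 1.16 ± 0.0409% at T29 and 0.849 ± 0.0342% at T30 (SD, n = 3). All 3 T30 libraries (0.828% to 0.888%) lay below all 3 T29 libraries (1.12% to 1.19%). Counts of the 10 mitochondrial genes divided by those of the 58 nuclear genes were 1.70 ± 0.139 at T27, 1.77 ± 0.155 at T28, 1.57 ± 0.169 at T29 and 2.39 ± 0.475 at T30 (SD, n = 3). The lowest T30 library had a ratio of 1.91 and the highest earlier library one of 1.88. The ratio is of counts and not corrected for gene length, so only its change between stages can be read.

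**Figure D1:**
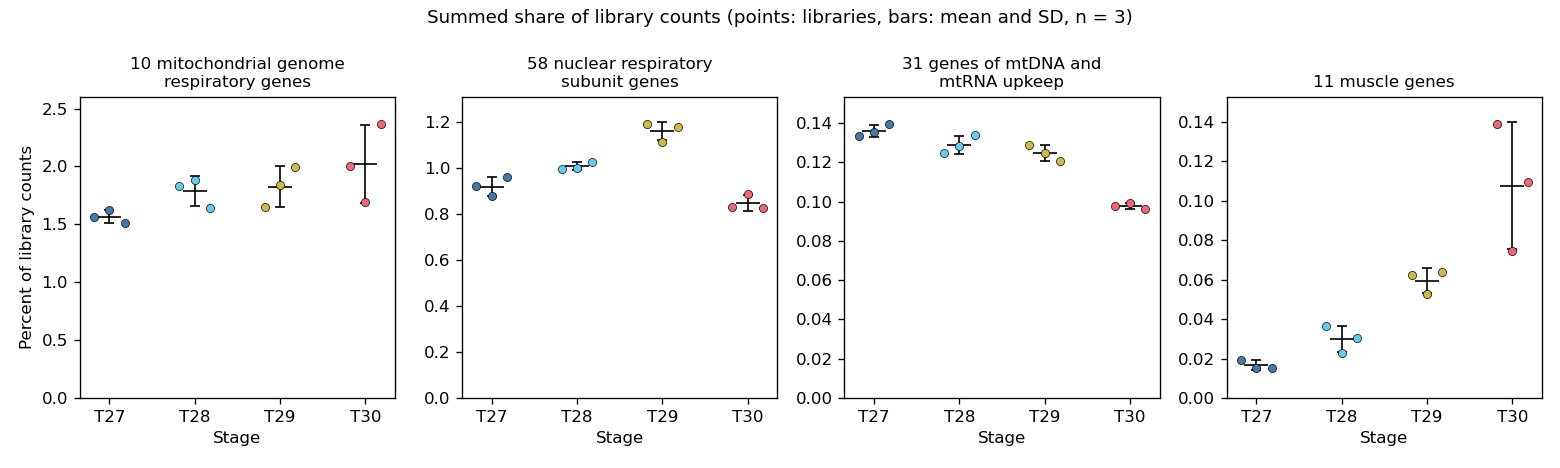
Share of library counts (percent, axes from 0, each panel with its own scale) by stage for 4 gene lists: the 10 mitochondrial genome respiratory genes, 58 nuclear respiratory subunit genes, 31 nuclear genes for the upkeep of mitochondrial DNA and RNA, and 11 muscle genes. Points are libraries and bars are the mean and SD of 3 libraries: the mitochondrial share was 2.02% at T30 and 1.57% at T27, while the nuclear subunit share was 0.849% at T30 and 1.16% at T29.

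Per gene, 6 of the 10 rose between T27 and T30 (ND2, ND4, ND5, COX1, ATP6 and ATP8) and none fell, by the quasi-likelihood F test of edgeR, with p-values adjusted by Benjamini-Hochberg over 16526 genes and a threshold of 0.05. T30 differed from T27 widely, and 34.8% of all genes tested were called higher and 34.1% lower, 68.8% in all. The T30 libraries lay wholly above the T27 libraries for 6 of the 10 (ND1 and the called genes other than ND5), and did so for 35.9% of all genes, with 35.6% wholly below. The median log2 change was 0.37 over the 10 genes and 0.01 over all genes tested. Levels per gene are given below in CPM, each count as a part of the library's total and with the totals scaled by TMM, edgeR's correction for library composition.

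ND1, ND2, ND4 and ND5 code for subunits of the membrane arm of complex I. ND2, ND4 and ND5 are its antiporter-like proton-pumping units and ND1 lies beside the quinone-binding site. ND4 was at 864, 901 and 862 CPM in the T27 libraries, 1058, 942 and 896 at T28, 901, 963 and 1166 at T29, and 1510, 1216 and 1828 at T30. All 3 T30 libraries lay above all 9 earlier ones. ND4 rose 1.73-fold between T27 and T30, a log2 change of 0.79 (SE 0.13, edgeR adjusted p = 8.3e-05), the largest of the 10 genes in that comparison.

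ND2 was at 400, 401 and 400 CPM at T27, 460, 505 and 413 at T28, 433, 456 and 513 at T29, and 613, 626 and 718 at T30. Its T27 libraries were nearly level with each other and its T30 libraries again stood above all others. ND2 rose 1.63-fold between T27 and T30, a log2 change of 0.70 (SE 0.094, edgeR adjusted p = 9.4e-06).

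ND5 had a smaller change. It was at 662, 630 and 567 CPM at T27, 733, 662 and 670 at T28, 649, 686 and 714 at T29, and 774, 634 and 850 at T30. T30 replicate 2 lay within the T27 range, so the groups overlapped. The log2 change between T27 and T30 was 0.28 (SE 0.10, edgeR adjusted p = 0.025), and it did not pass when T27 replicate 3 (adjusted p = 0.10), T30 replicate 1 (0.063) or T30 replicate 3 (0.0999) was left out, nor in a fit of the 2 stages alone (0.067).

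The range of ND1 was 840 to 880 CPM in T27 libraries, 873 to 1006 in T28 libraries, 895 to 1078 in T29 libraries and 886 to 1150 in T30 libraries. Its T30 and T27 libraries did not overlap but its log2 change of 0.21 did not pass (SE 0.11, edgeR adjusted p = 0.087). It passed without T30 replicate 1, with a log2 change of 0.29 (adjusted p = 0.035), and with library totals in place of TMM (adjusted p = 0.030).

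CYTB, the cytochrome b of complex III that passes electrons between its quinone sites, was the member nearest to no difference. It was at 2641, 2647 and 2752 CPM at T27, 3382, 3323 and 2823 at T28, 2867, 3071 and 3534 at T29, and 2593, 2460 and 3450 at T30. T30 replicates 1 and 2 lay below every T27 library and replicate 3 above them, so the stages overlapped. The log2 change between T27 and T30 was 0.08 (SE 0.12, edgeR adjusted p = 0.58), and −0.07 without T30 replicate 3.

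COX1, COX2 and COX3 form the core of complex IV: COX1 holds the haems and the copper where oxygen is reduced, COX2 takes electrons from cytochrome c, and COX3 supports them. COX1 was at 4105, 4186 and 4072 CPM at T27, 5011, 5095 and 4293 at T28, 4603, 5073 and 5801 at T29, and 5824, 4963 and 6695 at T30. The T30 libraries lay above the T27 libraries, and T30 replicate 2 lay within the ranges of T28 and T29. COX1 rose 1.41-fold between T27 and T30, a log2 change of 0.50 (SE 0.12, edgeR adjusted p = 0.0014).

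The other core subunits of complex IV did not pass. COX2 had 2091 to 2268 CPM in T27 libraries, 2127 to 2658 in T28 libraries, 2287 to 3061 in T29 libraries and 2212 to 3026 in T30 libraries. COX3 had 2557 to 2729 CPM in T27 libraries, 2686 to 3266 in T28 libraries, 2735 to 3677 in T29 libraries and 2460 to 3594 in T30 libraries. Both overlapped between T30 and T27, with log2 changes of 0.25 for COX2 (SE 0.13, edgeR adjusted p = 0.11) and 0.17 for COX3 (SE 0.14, adjusted p = 0.27). COX2 passed without T30 replicate 2, with a log2 change of 0.34 (adjusted p = 0.035).

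ATP6 and ATP8 are the membrane subunits of ATP synthase that the mitochondrion codes, ATP6 forming part of the proton channel. ATP6 was at 1019, 1071 and 1102 CPM at T27, 1293, 1235 and 1054 at T28, 1054, 1139 and 1453 at T29, and 1354, 1308 and 1744 at T30. ATP8 was at 173, 170 and 162 CPM at T27, 213, 190 and 175 at T28, 183, 191 and 217 at T29, and 229, 221 and 277 at T30. In both genes every T30 library stood above every T27 library, and in ATP8 above every earlier one. ATP6 rose 1.38-fold between T27 and T30 (log2 0.46, SE 0.13, edgeR adjusted p = 0.0058) and ATP8 1.44-fold (log2 0.53, SE 0.098, adjusted p = 0.00022).

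**Figure D2:**
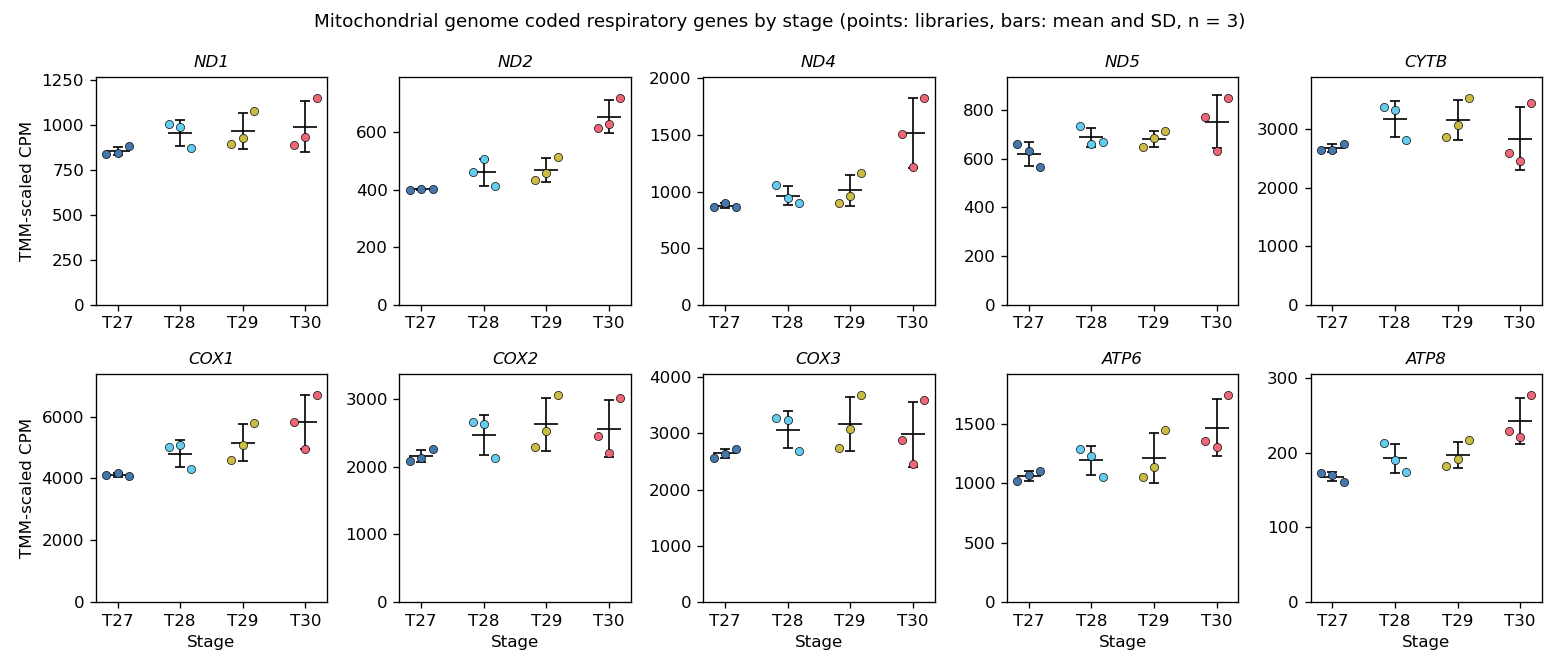
TMM-scaled CPM of each of the 10 mitochondrial genes by stage, with a separate linear axis from 0 for each gene. Points are libraries and bars are the mean and SD of 3 libraries: the T30 libraries of ND2, ND4 and ATP8 lie above all earlier ones, while those of COX2 lie among them and those of CYTB and COX3 lie partly among and partly below them.

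By step, in the fit of all 12 libraries, members were called only at the last. There 3 of 10 were called higher, near the 30.3% of all genes tested. Their median log2 change was 0.19 between T27 and T28, 0.03 between T28 and T29 and 0.16 between T29 and T30. None of the 10 genes passed between T27 and T28, where 26% of all genes did (14.3% higher and 11.8% lower), and none between T28 and T29, where 13.4% did (7.86% higher and 5.54% lower). At both steps 0 of the 10 had an unadjusted p under 0.05 in edgeR, and DESeq2 and limma voom also called 0. In a fit of T28 and T27 alone CYTB (log2 0.27, edgeR adjusted p = 0.031) and COX1 (log2 0.24, adjusted p = 0.045) passed.

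The estimates at the first step were alike in sign nonetheless. All 10 log2 changes between T27 and T28 lay between 0.14 and 0.24, where 7891 of 16526 genes tested had a positive change. The 10 genes share their libraries and scaling, so their signs are not separate observations. ND2, CYTB, COX1 and ATP8 had all T28 libraries above all T27 libraries, 4 of 10 where 21.7% of all genes tested did the same. From T28 to T29 the log2 changes lay between −0.01 and 0.10.

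At the last step 3 of the 10 rose and none fell, against 30.3% of all genes called higher, 30.1% called lower and 60.3% called in all between T29 and T30. ND4 rose by a log2 change of 0.59 (SE 0.13, edgeR adjusted p = 0.0015), ND2 by 0.48 (SE 0.094, adjusted p = 0.00048) and ATP8 by 0.30 (SE 0.098, adjusted p = 0.016). ND2, ND4 and ATP8 were also the 3 genes whose T30 and T29 libraries did not overlap, where 31.7% of all genes lay wholly higher and 31.7% wholly lower. ATP8 did not pass when T29 replicate 1 (adjusted p = 0.073), T29 replicate 2 (0.052) or T30 replicate 3 (0.084) was left out.

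Of the other members, ATP6 had a log2 change of 0.27 at the last step, COX1 of 0.18, ND5 of 0.14 and ND1 of 0.03. COX2 had one of −0.04, COX3 of −0.09 and CYTB of −0.16. None of these passed in edgeR (adjusted p between 0.086 and 0.83). Without T30 replicate 2 the count of members called was 6, with ND5 (log2 0.25), COX1 (0.28) and ATP6 (0.35) added. Without T29 replicate 3 ATP6 also passed (log2 0.42, edgeR adjusted p = 0.013), and without T30 replicate 3 CYTB was called lower (log2 −0.32, adjusted p = 0.019).

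Whether the last step differed from the first was tested as a contrast of the T30-minus-T29 and T28-minus-T27 changes, which share no library. It called 0 of the 10 genes in edgeR, where 44.8% of all genes were called (20.5% higher and 24.3% lower), and 3 of the 10 had an unadjusted p under 0.05. DESeq2 called 1 of them (ND4), limma voom 0 and edgeR with library totals in place of TMM 2 (ND2 and ND4). ND4 had a difference of steps of 0.45 on the log2 scale in edgeR and CYTB one of −0.40. ND4 passed without T30 replicate 2 (adjusted p = 0.0090) and without T29 replicate 3 (0.026), ND2 without T29 replicate 3 (0.048), and CYTB, as lower, without T30 replicate 3 (0.0050) and without T28 replicate 3 (0.049). COX3 was also called lower without T30 replicate 3 (log2 −0.47, adjusted p = 0.037). Over the 4 stages together 5 of the 10 genes differed in edgeR, against 76.8% of all genes.

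The genes differed among themselves in how they moved, which is seen most directly when each is taken as a percentage of the counts of the 13 mitochondrial protein genes in the same library. On that scale library size and its scaling drop out. ND4 made up 5.43%, 5.56% and 5.26% of these counts in the T27 libraries, 5.36%, 4.83% and 5.40% at T28, 5.25%, 5.14% and 5.32% at T29, and 7.61%, 6.90% and 7.57% at T30. CYTB made up 16.6%, 16.4% and 16.8% at T27, 17.1%, 17.04% and 17.01% at T28, 16.7%, 16.4% and 16.1% at T29, and 13.1%, 13.96% and 14.3% at T30. For both genes the 9 earlier libraries lay close together and the 3 T30 libraries apart from them, ND4 above and CYTB below.

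ND2, ND4, COX1, ATP6 and ATP8 took a higher percentage in every T30 library than in any of the 9 earlier libraries, and CYTB, COX2 and COX3 a lower one. Over all genes tested, expressed in the same way, 14.5% were higher and 22.6% lower in all 3 T30 libraries. The members are parts of the mitochondrial sum and nuclear genes are not, so these percentages are not a like background. COX1 made up 29.3%, 28.2% and 27.7% at T30 and between 24.9% and 27.1% before. COX3 made up 14.5%, 13.96% and 14.9% at T30 and between 15.9% and 16.8% before. COX2 made up 12.4% to 12.6% at T30 and 12.8% to 13.9% before. ND1 and ND5 overlapped between T30 and the earlier stages. A percentage of a fixed sum shows unequal change and not which gene moved, and no test was made of it.

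**Figure D3:**
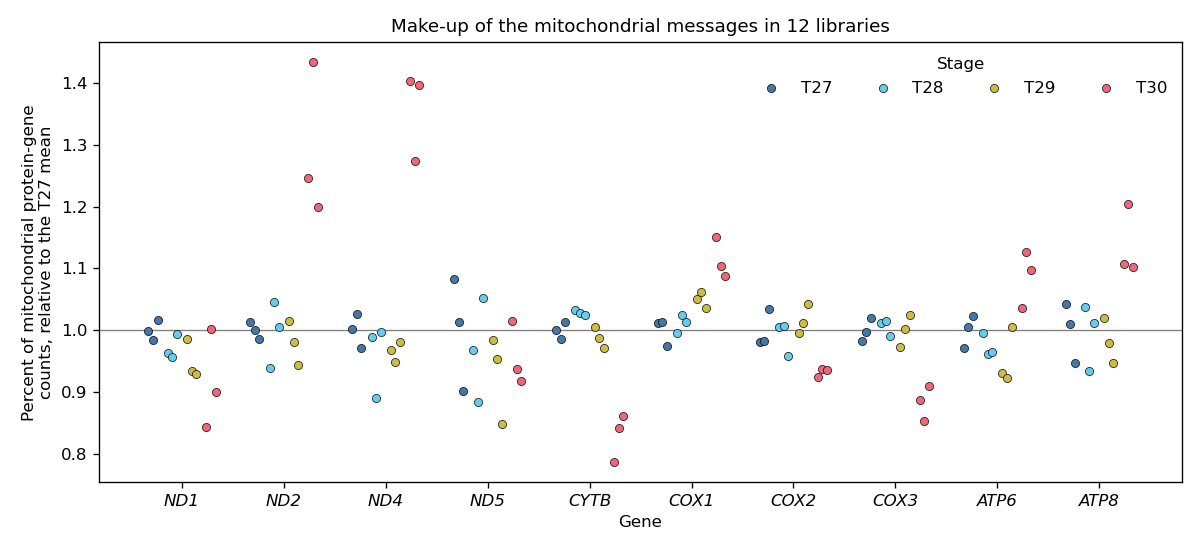
Each of the 10 genes as a percentage of the counts of the 13 mitochondrial protein genes, divided by that gene's T27 mean (vertical axis, a ratio, not starting at 0), for the 12 libraries, coloured by stage. The T30 points of ND2, ND4, COX1, ATP6 and ATP8 lie above, and those of CYTB, COX2 and COX3 below, all earlier points of the same gene.

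The genes that took a higher percentage at T30 (ND2, COX1, ATP8, ATP6 and ND4) are interleaved on the same strand with those that took a lower one (CYTB, COX2 and COX3), and ATP6 directly abuts COX3. ND4L, the complex I gene that overlaps the start of ND4, rose with it: it was at 150, 152 and 127 CPM at T27, 164, 156 and 167 at T28, 157, 171 and 173 at T29, and 243, 193 and 251 at T30, a log2 change of 0.68 between T27 and T30 (SE 0.099, edgeR adjusted p = 2.1e-05). The remaining mitochondrial protein genes, ND3 (log2 0.12) and ND6 (log2 0.19), did not pass between T27 and T30 (adjusted p = 0.38 and 0.24).

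The same sequence holds 2 ribosomal RNA genes, which build the mitochondrion's own ribosome. The shorter, at 1344 to 2243, was at 112, 106 and 118 CPM at T27, 251, 180 and 152 at T28, 147, 136 and 211 at T29, and 229, 176 and 272 at T30, with all T30 libraries above all T27 libraries. It rose 2.02-fold between T27 and T30 (SE 0.19 on the log2 scale, edgeR adjusted p = 0.00026). Unlike the members it passed at the first step, T27 to T28 (1.74-fold, adjusted p = 0.0071). It did not pass between T28 and T29 (log2 −0.24, adjusted p = 0.46) or T29 and T30 (log2 0.46, adjusted p = 0.051). The longer, at 2315 to 3935, overlapped between T30 (2222 to 3588 CPM) and T27 (2195 to 2581 CPM) and did not pass (log2 0.22, adjusted p = 0.26). The 22 tRNA genes together held 0.0149% to 0.0190% of the counts at T30 and 0.0125% to 0.0144% at T27. How RNA was selected for the libraries is not stated, and counts of rRNA and tRNA depend on it. The share and make-up of the mitochondrial messages may depend on it too.

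Across the 12 libraries the log2 CPM of the members moved together. Pearson's r between pairs of members had a median of 0.825 over 45 pairs and ran from 0.203 for ND2 with CYTB to 0.970 for COX2 with COX3. With each stage's mean removed it had a median of 0.893 and ran from 0.413 for ND2 with ND5 to 0.989 for COX2 with COX3. These are descriptions over libraries that share their depth and scaling, and the members share their library in each point.

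Levels between genes were compared as CPM per kilobase of exon length. At T27 the means ran in the order COX3 (3361 CPM per kb), COX2 (3134), COX1 (2652), CYTB (2250), ATP6 (1567), ATP8 (1002), ND1 (884), ND4 (636), ND2 (384) and ND5 (345), a 9.75-fold span. COX3 stood above COX2 in each of the 3 T27 libraries although the ranges of the 2 genes overlapped. Every other pair of neighbours was apart. The same order was found in all 3 libraries of T28 and of T29. ATP8 is only 168 bp long and shares 10 bases with ATP6, so reads left uncounted there may lower its level. At T30 COX3 (3790 CPM per kb), COX1 (3750) and COX2 (3717) could no longer be ordered, since each stood above the next in only 1 of 3 libraries. ND4 (1102 CPM per kb) had a higher mean than ND1 (1025) at T30 and was above it in 2 of 3 libraries, whereas ND1 was the higher in every library of the 3 earlier stages.

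The matched nuclear subunit genes were set beside the mitochondrial genes of each complex. Of the listed symbols, 35 of 38 were matched for complex I, 3 of 4 for complex II and 6 of 10 for complex III. For complex IV 6 of 15 and for complex V 8 of 33 were matched, so the lists are incomplete. Of the 58 matched, 53 fell and none rose between T29 and T30 in edgeR, with a median log2 change of −0.50, against 30.1% of all genes called lower and a median of 0.02 over all genes. Leaving out any 1 library gave between 51 and 54 calls. NDUFA5, SDHA, UQCR10, ATP5PO and ATP5F1E were the 5 that did not pass, named here after their values were seen. In T30 against T27, 2 of the 58 were called higher and 18 lower, with a median log2 change of −0.11, against 34.8% of all genes called higher and 34.1% called lower.

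In complex I, 34 of 35 nuclear genes fell between T29 and T30, while ND2 and ND4 rose and ND1 and ND5 did not pass. NDUFAB1, the acyl carrier protein of complex I, averaged 69.4 ± 4.97 CPM at T30 and 125 ± 10.8 CPM at T29 (SD, n = 3 each), a log2 change of −0.85 (SE 0.084, edgeR adjusted p = 7.8e-07). NDUFA11, an accessory membrane subunit, fell by 0.85 and NDUFA3 by 0.82 on the log2 scale. Counts of the 4 mitochondrial members divided by those of the nuclear genes of complex I were 1.06 ± 0.195 at T30 and 0.601 ± 0.0447 at T29. Complex II has no mitochondrial gene. Its SDHD and SDHC, which anchor it in the membrane, fell by 0.60 and 0.49.

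In complex III, 5 of 6 nuclear genes fell at the last step, where CYTB did not pass. CYC1, the cytochrome c1 that works beside cytochrome b, averaged 200.1 ± 18.01 CPM at T30 and 293 ± 24.1 CPM at T29 (log2 −0.55, SE 0.091, edgeR adjusted p = 0.00013), and UQCR11, a small accessory subunit, fell by 0.79. The ratio of CYTB to nuclear complex III counts was 2.59 ± 0.585 at T30 and 2.14 ± 0.188 at T29, and its libraries overlapped, at 2.11 to 3.24 and 1.92 to 2.25.

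In complex IV all 6 matched nuclear genes fell at the last step, where COX1, COX2 and COX3 did not pass. COX5A, which with COX5B lines the matrix side of the enzyme, averaged 272 ± 12.7 CPM at T30 and 416 ± 35.4 CPM at T29 (log2 −0.61, SE 0.087, edgeR adjusted p = 3.0e-05). COX7A2L, known in mammals for its part in joining complexes III and IV, fell by 0.72. The ratio of mitochondrial to nuclear counts in complex IV was 9.57 ± 1.76 at T30 and 6.28 ± 0.789 at T29.

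In complex V, 6 of 8 nuclear genes fell, while ATP8 rose and ATP6 did not pass. ATP5F1B, the catalytic beta subunit, averaged 974 ± 120 CPM at T30 and 1544 ± 74.9 CPM at T29 (log2 −0.66, SE 0.097, edgeR adjusted p = 3.6e-05), and ATP5F1C, the gamma subunit of the rotor, fell by 0.69. The ratio in complex V was 0.879 ± 0.170 at T30 and 0.481 ± 0.0647 at T29. In complexes I, IV and V every T30 library had a ratio above every T29 library.

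**Figure D4:**
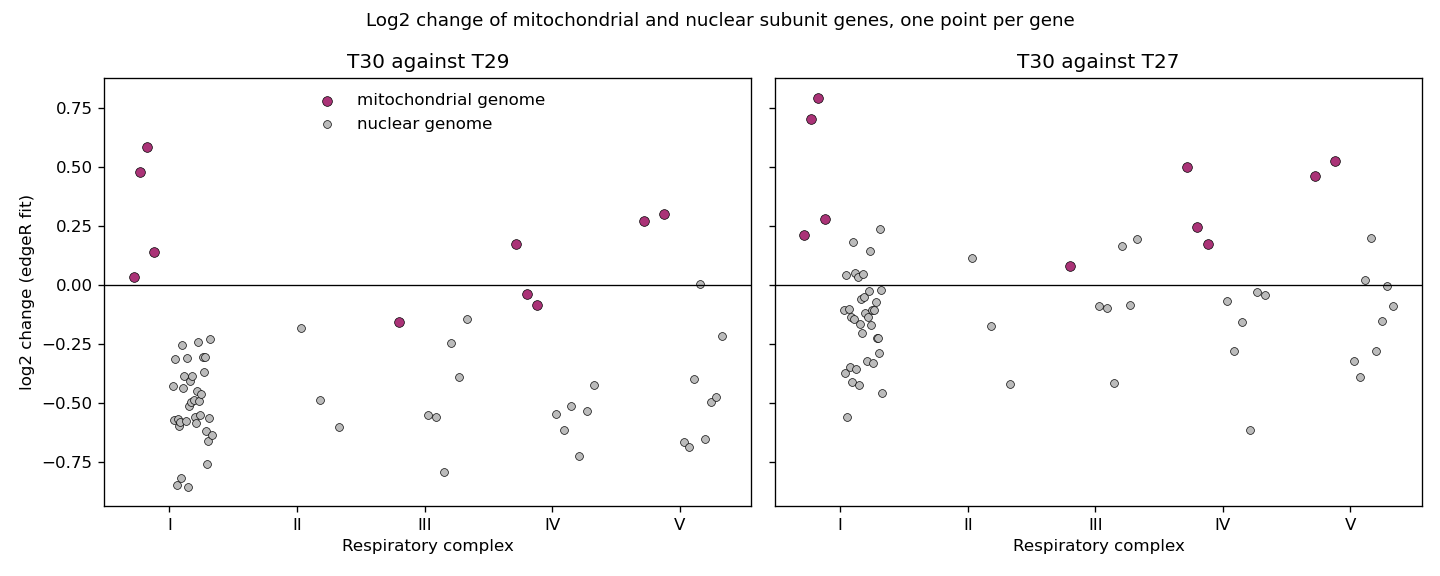
Log2 change in the edgeR fit of T30 against T29 (left) and T30 against T27 (right) for each subunit gene, by respiratory complex, 1 point per gene, with mitochondrial genes in purple and nuclear genes in grey. At the last step 53 of 58 nuclear genes were called lower, and the mitochondrial genes lay between −0.16 for CYTB and 0.59 for ND4.

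Before the last step the nuclear genes had positive medians. Between T27 and T28, 4 of 58 rose and none fell in edgeR, where 14.3% of all genes were called higher. NDUFB8 led them with a log2 change of 0.36 (SE 0.086, adjusted p = 0.0075), and COX4I1, the subunit through which ATP is known to regulate complex IV in mammals, was among them at 0.31. That count was 1 without T27 replicate 1, T27 replicate 2 or T28 replicate 1, 2 without T28 replicate 2 or T28 replicate 3, 7 without T30 replicate 2 or T30 replicate 3 and 12 without T27 replicate 3.

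Between T28 and T29, 9 nuclear genes rose and none fell, where 7.86% of all genes were called higher. NDUFS8, an iron-sulphur subunit of complex I, had the largest change, at 546 ± 36.5 CPM at T29 and 367 ± 2.77 CPM at T28 (log2 0.57, SE 0.085, edgeR adjusted p = 0.00086). The count was 2 without T28 replicate 1, T28 replicate 2, T28 replicate 3 or T29 replicate 1 and 1 without T29 replicate 3. Both counts thus moved with single libraries. All T29 libraries lay above all T28 libraries for 42 of the 58 and below for 0, where 17.7% of all genes lay wholly higher. All T28 libraries lay above all T27 libraries for 19 of the 58, where 21.7% of all genes did the same. The median log2 changes of the 58 genes at these steps were 0.14 and 0.22. In the contrast of the last step with the first, 50 of the 58 were called lower, where 24.3% of all genes were. NDUFS5 had the largest difference at −1.04.

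Genes that keep and copy the mitochondrial genome and handle its RNA are nuclear too, and most of those measured were lower at T30. Of 31 matched, 20 fell and 2 rose between T27 and T30 in edgeR, where 34.1% of all genes were called lower and 34.8% higher. Between T29 and T30, 22 fell and 1 rose, where 30.1% of all genes were called lower and 30.3% higher. TFAM, which packs mitochondrial DNA and starts its transcription, averaged 86.5 ± 7.51 CPM at T30 and 167 ± 20.4 CPM at T27 (log2 −0.95, SE 0.087, adjusted p = 1.8e-07). POLRMT, the mitochondrial RNA polymerase, averaged 37.4 ± 2.71 CPM at T30 and 38.1 ± 0.520 CPM at T27 (log2 −0.03, adjusted p = 0.76), and TFB2M, its initiation partner, fell by 0.32.

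LRPPRC, which in mammals steadies mitochondrial messages, fell by 0.58 on the log2 scale between T27 and T30. The largest falls were in RNASEH1, which removes RNA paired with DNA, at 5.69 ± 0.540 CPM at T30 and 30.8 ± 2.88 CPM at T27 (log2 −2.44, SE 0.13, edgeR adjusted p = 4.9e-10), and in SSBP1, the mitochondrial single-strand DNA-binding protein, at 16.8 ± 3.06 CPM at T30 and 66.5 ± 8.80 CPM at T27 (log2 −1.99). PDE12, which trims the poly(A) tails of mitochondrial RNA, fell by 1.04, and MTPAP, which adds them, fell by 0.72 between T29 and T30. POLG, the mitochondrial DNA polymerase, rose by a log2 change of 0.30 and TFB1M, a methyltransferase of mitochondrial rRNA, by 0.29 between T27 and T30.

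Factors that assemble the complexes went both ways, with more called lower than higher at T30. Of 41 matched, 22 fell and 8 rose between T27 and T30 in edgeR, where 34.1% of all genes were called lower, 34.8% higher and 68.8% in all. Between T29 and T30, 25 fell and 3 rose, where 30.1% of all genes were called lower and 30.3% higher. NUBPL, which delivers iron-sulphur clusters to complex I, averaged 9.20 ± 1.41 CPM at T30 and 30.4 ± 4.58 CPM at T27 (log2 −1.73, SE 0.13, adjusted p = 2.3e-08), and ACAD9, another complex I assembly factor, fell by 0.95. COX20, a chaperone of COX2, fell by 0.87. OXA1L, which inserts proteins made in the mitochondrion into the inner membrane, averaged 18.7 ± 2.24 CPM at T30 and 11.03 ± 2.27 CPM at T27 and rose by a log2 change of 0.76 (SE 0.19, adjusted p = 0.0028).

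Of the regulators of mitochondrial gene expression in the nucleus, 4 were matched by name. The nuclear receptor ESRRG averaged 5.12 ± 1.01 CPM at T30 and 1.26 ± 0.260 CPM at T27 (log2 2.02, SE 0.31, edgeR adjusted p = 3.5e-05). ESRRB rose by 1.76 but averaged under 1 CPM at every stage, so few counts lie behind each value. GABPB1, a subunit of the factor that drives many respiratory genes in mammals, fell by 0.59, and NRF1, another such factor, had a log2 change of −0.17 (adjusted p = 0.10). PPARGC1A was not matched by name and is not analysed here.

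Markers of other tissue are given beside these results, and in bulk RNA fewer cells of a type and less RNA per cell cannot be told apart. The counts of markers called stand against 34.8% of all genes called higher and 34.1% called lower in T30 against T27. Of the listed symbols, 11 of 38 were matched for muscle, 6 of 19 for ionocyte and gill and 8 of 17 for connective tissue. For the labelled tissue 7 of 16 were matched, for pigment 9 of 12, for liver 11 of 18 and for erythroid cells 3 of 16. These lists are thus incomplete. Of 11 matched muscle genes 11 rose between T27 and T30 in edgeR, and none was at 0 in any library. Their summed share ran from 0.0747% to 0.139% at T30 and from 0.0151% to 0.0195% at T27. At T30 the muscle share was 0.139%, 0.0747% and 0.110% in replicates 1 to 3. Replicate 2 was lowest in both the muscle and the mitochondrial share. Replicate 1 was highest in the muscle share and replicate 3 in the mitochondrial share. At T29 replicate 3 was highest in both (0.0639% and 1.995%). At T28 replicate 2 had the lowest muscle share (0.0228%) and the highest mitochondrial share (1.89%). The same held for replicate 2 at T27 (0.0151% and 1.62%). Of 6 ionocyte and gill genes 3 rose and 3 fell, with summed shares of 0.0282% to 0.0340% at T30 and 0.0389% to 0.0419% at T27. Of 8 connective tissue genes 7 fell, with summed shares of 0.0476% to 0.0519% at T30 and 0.164% to 0.192% at T27. The part of these tissues in the mitochondrial values was not tested.

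Of the genes that mark the labelled tissue, SLC5A5, which takes up iodide, IYD, which recovers it, and the transcription factors PAX2, HHEX, FOXA2 and ISL1 were detected in every library. ISL1 fell and the other 5 of these rose between T27 and T30 in edgeR. SLC5A5 averaged 105.6 ± 12.2 CPM at T30 and 5.93 ± 0.902 CPM at T27 (SD, n = 3 each), and ISL1 averaged 30.3 ± 2.83 CPM at T30 and 81.4 ± 3.56 CPM at T27. Pigment genes (7 of 9 higher), liver genes (2 higher and 4 lower of 10) and erythroid genes (2 of 3 lower) held at most 0.0116% of any library each.

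The genes whose log2 CPM most resembled that of the summed members across the 12 libraries, among 6179 genes with a symbol and a mean of at least 1 CPM, were B3GNTL1 (Pearson r 0.921), MANBA, a lysosomal beta-mannosidase (0.893), CASD1, a sialic acid acetyltransferase (0.888), UBE2H, a ubiquitin-conjugating enzyme (0.886) and VPS35L, an endosomal recycling protein (0.879). Among all 14483 genes searched, with or without a symbol, they ranked 3, 8, 9, 11 and 15. They were picked as the highest of many, so their r is high by selection. B3GNTL1 averaged 15.1 ± 2.87 CPM at T30 and 10.2 ± 0.0878 CPM at T27. B3GNTL1, MANBA and CASD1 passed between T27 and T30 in edgeR, and UBE2H and VPS35L did not (adjusted p = 0.064 and 0.099). Of the nuclear respiratory subunit genes the median r was 0.017, with a range from −0.589 to 0.865. The points share their libraries and depth, and r is given as a description.

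A separate table deposited by the authors gives each of 1671 genes a score in 6 columns, for the tunicate Ciona, zebrafish and each lamprey stage, standardised within the gene, with 1 value per column. All 10 members stand in it, and among the lamprey columns all 10 had their lowest score at T27 and their highest at T30. T27 was lowest for 33.1% and T30 highest for 38.7% of all genes listed. COX1, for example, had scores of −1.61, −0.43, −0.07 and 1.35 from T27 to T30. The TMM-scaled CPM differed from the scores for CYTB, COX2 and COX3. Their mean CPM was lower at T30 than at T29, at 2834 and 3157, 2565 and 2629, and 2979 and 3161. For COX2 this depended on the scaling, since its mean share of library counts was 0.262% at T30 and 0.257% at T29. The share was also lower at T30 for CYTB (0.289% and 0.309%) and COX3 (0.304% and 0.309%). For ATP6, ND4, ND2 and ATP8 the lowest score of all columns was Ciona's, at −2.03, −1.76, −1.80 and −1.75, which was so for 1.86% of the table. The other 6 members had their lowest score at T27. A score standardised within a gene gives no level, so no level in Ciona can be read from it. Of 16 nuclear subunit genes in it, 15 had their highest lamprey score at T29 and 1 at T30. The stage columns come from the same lamprey tissue as the counts, so the table is no independent measure, and no test was run on it.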

How the data were processed

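Endostyle RNA of WT sea lamprey at 4 stages, 3 libraries each, was analysed from a table of raw counts that the authors deposited, made with featureCounts 1.6.3 per the file headers, with no option for strand, read pairs or multiple mapping. The submitters' processing notes also name Bowtie2 and DESeq2. RNA selection, read trimming and aligner settings are not stated in the labels or headers. The authors' deposited table of z-scores is a score per gene and column and was only described.

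Library totals were 28371140 to 36032488 counts, so counting error on the members is small beside the spread between libraries. edgeR 4.0.16 (R 4.3.3) kept 16526 genes (filterByExpr, minimum count 10), scaled by TMM and fitted a quasi-likelihood model over 12 libraries with 8 residual degrees of freedom. P-values were adjusted by Benjamini-Hochberg over all genes tested. "Rose" and "fell" mean past 0.05. SE is the absolute log2 change over the square root of F. Symbols for 688 locus numbers, and the kind of all 37 mitochondrial genes (matched by position), came from the RefSeq gene table. The test was checked on simulated counts.

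The members and gene lists were chosen with earlier results of these data known. Named genes are all members, up to 3 called genes per list, direction and comparison with the largest change, the 5 most alike and TFAM, POLRMT, LRPPRC, PPARGC1A and NRF1. Alternatives were DESeq2 1.42.0, limma voom 3.58.1, other scalings, no filter, fits of 2 stages, a replicate block and leaving out each library. No sequence is printed.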

Additional observations from a re-analysis of the deposited data

How the results depend on the processing

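The count of members called was 6 between T27 and T30 and 3 between T29 and T30, and stayed within 1.5 times of that under DESeq2, limma voom, RLE scaling, library totals alone, scaling from nuclear genes alone, no filter and fits of 2 stages. Leaving out 1 library gave 5 to 7 for the first and 2 to 6 for the second. Where settings moved a count, the cause was not tested. In fits of 2 stages 2 members and 13 nuclear subunits passed between T27 and T28, and 24 nuclear subunits between T28 and T29. With library totals alone 10 nuclear subunits passed between T27 and T28, 17 between T28 and T29, and 2 members in the contrast of steps. DESeq2 gave 7 nuclear subunits between T27 and T28 and 1 member in the contrast of steps. Leaving out 1 library gave 1 to 12 nuclear subunits between T27 and T28, 1 to 13 between T28 and T29, 0 to 2 members in the contrast of steps, and 1192 to 2395 genes between T28 and T29, where all 12 libraries gave 2215. That count was lowest without T28 replicate 1 and over 1.5 times lower also when T28 replicate 2, T28 replicate 3 or T29 replicate 1 was left out. The difference in summed share between T30 and T27 was 0.285 to 0.620 percentage points.

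Log2 changes of members that changed sign were small, and none had passed the test. Between T28 and T29 leaving out 1 library gave −0.069 to 0.069 for ND1, −0.049 to 0.098 for ND2, −0.051 to 0.142 for ND4, −0.044 to 0.037 for ND5, −0.097 to 0.057 for CYTB, −0.034 to 0.181 for COX2, −0.078 to 0.140 for COX3, −0.123 to 0.118 for ATP6 and −0.044 to 0.110 for ATP8. Between T29 and T30 it gave −0.086 to 0.117 for ND1, −0.171 to 0.085 for COX2 and −0.243 to 0.034 for COX3, and between T27 and T30 −0.071 to 0.173 for CYTB. In the contrast of steps it gave −0.125 to 0.096 for ND5, −0.173 to 0.056 for COX1, −0.051 to 0.251 for ATP6 and −0.0181 to 0.1801 for ATP8. With library totals alone the value was −0.0054 for ND1 between T28 and T29, 0.024 for COX2 between T29 and T30, and 0.063 for ND5 and 0.029 for COX1 in the contrast of steps.

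Whether a replicate number links libraries of different stages is not stated. Deviations from the stage mean of the 18 same-numbered pairs correlated at −0.289 to 0.241, 4 of them over 0.1. The 36 pairs with different numbers correlated at −0.181 to 0.239, 6 of them over 0.1. With the replicate block 11276 genes passed between T27 and T30 and 9821 between T29 and T30, and members called stayed at 6 and 3. With 3 libraries per stage, differences of the size of the T30 spread in COX2, COX3 and CYTB could not be resolved.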
